A study of Mus musculus with 4 samples.

Results

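The genes described are the 7 transcription factors that classically drive the epithelial-mesenchymal transition (EMT): Snai1, Snai2, Snai3, Twist1, Twist2, Zeb1 and Zeb2. They were chosen by name, through the gene symbol that the platform annotation gives each probe, and Zeb1 and Zeb2 were found under the older symbols Zfhx1a and Zfhx1b. Each had 1 probe, so that 7 of 23473 probes on the array and 7 of the 13765 genes tested belong to the set. All 7 probes had a value on all 4 arrays and entered the test, while an alternative that removed the dimmest 25% of probes lost Snai3 and Zeb2.

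The arrays measured messenger RNA in NSCL61, a mouse glioma-initiating line made from neural stem cells with oncogenic HRas in cells lacking p53. Per the labels, the line came from C57BL6 brain at postnatal day 0. The 2 Eva1 shRNA arrays carry a short hairpin RNA against Eva1, now named Mpzl2, an immunoglobulin-type protein of cell contacts. The 2 control arrays are labelled as the line alone, while the series title speaks of a control hairpin, and the labels' protocols give hygromycin selection of transfected cells for 1 week in one place and 2 weeks in another. Both groups are of this single line, and no label states that replicate arrays stem from different cultures. The p-values below therefore reflect the spread between these samples alone, and that spread may be technical. The probe for Mpzl2 had intensities of 8.20 and 6.21 on the Eva1 shRNA arrays, against 55.0 and 54.4 on the control arrays (limma, log2 change -3.12, adjusted p = 0.00105). As a check of the labelled cell type, the neural stem cell gene Nes had 435 and 430 on the Eva1 shRNA arrays and 532 and 537 on the control arrays. The probes of the glial precursor genes Olig2 and Slc1a3 were dim or blank on every array. Prom1, another listed stem cell gene, went the other way, with 11.8 and 9.76 on the Eva1 shRNA arrays, against 3.25 and a blank cell on the control arrays. Because of the blank cell Prom1 was not tested. Of the 5 tested markers of neural stem cells and glial precursors 1 was called, Fabp7, with 12.3 and 12.2 on the Eva1 shRNA arrays, against 22.1 and 24.6 on the control arrays (log2 change -1.15, adjusted p = 0.00521). The normalized levels of 4 of the 5, all but Hes1, did not overlap and were lower in Eva1 shRNA cells. Over all genes tested, 34.1% had such separate and lower groups, and 26.0% were called in either direction. The deposited intensities of Msi1 overlapped, at 44.2 and 42.2 on the Eva1 shRNA arrays and 49.7 and 40.9 on the control arrays, as did those of Olig2. The median log2 change of the 5 was -0.47.

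The 7 factors belong to 3 families. Snail proteins (Snai1, Snai2, Snai3) are zinc finger repressors, Zeb proteins carry a zinc finger cluster near each end, and Twist proteins are basic helix-loop-helix factors that bind DNA as dimers. All bind short DNA elements called E-boxes, and Snail and Zeb proteins are best known for repressing Cdh1, the gene of the epithelial adhesion protein E-cadherin, together with tight junction genes. In the nervous system these factors are known from the neural crest, from neural progenitors and, for several of them, from the invasive behaviour of glioma cells.

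Snai2 rose in the Eva1 shRNA cells, and the other 6 factors did not pass the test. A gene is called here when limma's two-sided adjusted p, taken over all 13765 genes, is under 0.05. By that rule 1 of the 7 factors was called higher and 0 were called lower, in a comparison where 12.5% of all genes tested were called higher, 13.5% lower and 26.0% in either direction. At an unadjusted p under 0.05 Snai2 and Zeb1 passed. The median log2 change of the 7 factors was -0.066, beside -0.014 over all genes. Changes are given as log2 Eva1 shRNA minus control, on intensities that were quantile normalized between arrays.

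**Figure D1:**
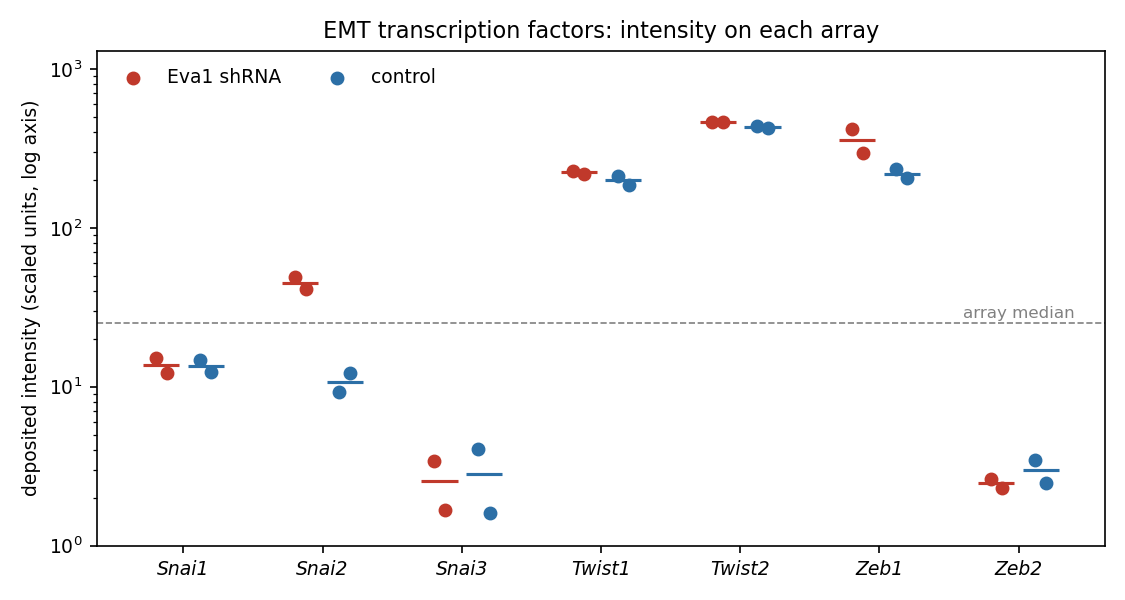
Deposited intensity of the probe of each EMT factor on each array, on a log axis in the authors' scaled units, with 2 Eva1 shRNA arrays (red) left of 2 control arrays (blue) and a bar at each group's mean. The dashed line marks the array median of 25. Snai2 stands above the median on both Eva1 shRNA arrays and below it on both control arrays. Levels of different probes are not comparable as amounts of RNA.

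Snai2, also called Slug, marks migrating neural crest cells and is a direct repressor of epithelial genes. Its probe had intensities of 48.7 and 41.3 on the Eva1 shRNA arrays, against 9.30 and 12.1 on the control arrays. The groups did not overlap, and the lower Eva1 shRNA value was 3.40 times the higher control value. The mean intensity was 45.0 ± 5.26 in Eva1 shRNA cells and 10.7 ± 2.01 in control cells (SD, n = 2 each). After normalization the log2 change was 1.87 with a standard error of 0.17 (limma, adjusted p = 0.00245), a 3.65-fold rise with a 95% interval of 2.73 to 4.86. It was the rise of rank 164 among the genes tested. The arrays hold bulk RNA, in which more cells that express a gene and more RNA per cell cannot be told apart.

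The rise of Snai2 passed the test under all 13 alternative settings. With 1 array left out, its log2 change ran from 1.72 to 2.00 and the highest adjusted p was 0.0234, without Eva1 shRNA array 1. Adding 16 intensity units before log2, which damps the changes of dim probes, brought the change to 1.07. The control intensities of Snai2 lay under the array median but above the level at which probes became blank. Of probes of like intensity, which are up to 25% brighter or as many times dimmer, 0.266% and 0.468% were blank on another array.

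Among the neural crest markers, of which 3 were tested, Pax3 and Tfap2a were called in opposite directions and Sox10 was not called. Over all genes tested 26.0% were called in either direction. Pax3, a paired-box factor of the neural crest and dorsal neural tube that was named after its value was seen, had 101 and 76.7 on the Eva1 shRNA arrays, against 6.09 and 8.63 on the control arrays. Its log2 change was 3.38 (adjusted p = 0.00112), or 2.03 with 16 units added. The summed intensity of the 3 markers ranged from 116 to 140 in Eva1 shRNA cells and from 48.0 to 56.1 in control cells. That difference came from Pax3. Tfap2a had 17.3 and 17.5 on the Eva1 shRNA arrays, against 24.1 and 26.1 on the control arrays, a log2 change of -0.74. Sox10 had 22.0 and 21.3 on the Eva1 shRNA arrays, against 17.7 and 21.3 on the control arrays, a log2 change of -0.052. The part of such markers in the rise of Snai2 was not tested.

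Snai1, the founding member of the family and a regulator of gastrulation, did not pass the test. It had intensities of 15.2 and 12.2 on the Eva1 shRNA arrays, against 14.7 and 12.3 on the control arrays. The groups overlapped, and replicate arrays differed by 1.24 times in Eva1 shRNA cells and 1.19 times in control cells. The log2 change was -0.21, with a 95% interval of -0.67 to 0.25 (adjusted p = 0.44). That interval lies wholly below the interval of Snai2, which is 1.45 to 2.28, although the difference between the 2 changes was not itself tested.

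Snail proteins bind the E-box CAGGTG, which reads CACCTG on the other strand, and in human cells SNAI1 is known to repress its own promoter through such a box. The RefSeq promoter table of GRCm38.p6, which holds 250 bases before and 50 after a gene's annotated start, had an entry for 4 of the 7 factors: Snai1, Twist1, Twist2 and Zeb2. The Snai1 window held 1 match on either strand, and the windows of Twist1, Twist2 and Zeb2 held 0. The match in Snai1 begins 126 bases before the start. It is shown because Snai1 is both a member of the set and a carrier of the letters its family reads. The 250 bases before the start follow, 5′ to 3′ in the direction of transcription, with the match in capitals.
Snai1, chr2:167537945-167538194, plus strand: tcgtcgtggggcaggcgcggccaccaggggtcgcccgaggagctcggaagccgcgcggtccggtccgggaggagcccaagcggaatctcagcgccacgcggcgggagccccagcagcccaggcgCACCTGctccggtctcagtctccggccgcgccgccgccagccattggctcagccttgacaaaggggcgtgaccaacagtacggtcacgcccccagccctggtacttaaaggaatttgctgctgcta

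Snai3, known as Smuc and described in muscle and thymus, was too dim to compare. It had 3.41 and 1.67 on the Eva1 shRNA arrays, against 4.06 and 1.61 on the control arrays. The groups overlapped, and replicates differed by 2.04 times in the Eva1 shRNA cells and 2.52 times in the control cells. Between 9.54% and 67.7% of probes of like intensity were blank on another array. The log2 change of -0.22 had a 95% interval of -1.60 to 1.16 (adjusted p = 0.799), and its sign turned without Eva1 shRNA array 2 (0.20) and without control array 1 (0.57). A difference of Snai3 was not detectable at this signal.

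Zeb1, a repressor found in neural progenitors and in invasive glioma cells, was higher on both Eva1 shRNA arrays without passing the test. It had 417 and 296 on the Eva1 shRNA arrays, against 233 and 206 on the control arrays. The groups did not overlap, but the Eva1 shRNA arrays differed from each other by 1.41 times. After normalization the change was a 1.42-fold difference, with a log2 change of 0.51 and a 95% interval of 0.014 to 1.00 (limma, adjusted p = 0.117 over genes).

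The call of Zeb1 changed with the setting. It passed once the dimmest 25% of probes were removed (adjusted p = 0.0426), after adding 16 units (0.028) and with a spread that follows the mean level, limma's trend option (0.0165). With 1 array left out the log2 change ran from 0.29, without Eva1 shRNA array 1, to 0.72, without Eva1 shRNA array 2, and the adjusted p from 0.101 to 0.425. Over all 13 alternatives the change stayed positive.

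Zeb2, which shapes neural crest and myelinating glia, was near the floor of the arrays. It had 2.64 and 2.31 on the Eva1 shRNA arrays, against 3.47 and 2.47 on the control arrays. The intensities of the groups overlapped, while the normalized levels did not and were lower in Eva1 shRNA cells. At these intensities between 16.3% and 53.4% of probes of like intensity were blank on another array. The log2 change was -0.41, with a 95% interval of -1.01 to 0.18 (adjusted p = 0.252). With 16 units added it was -0.065, and without control array 1 it was -0.10. A further probe carried the symbol Sip1, an older synonym shared by Zeb2, Gemin2, Scaf11 and Slc9a3r2, and was therefore not counted as a Zeb2 probe.

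Twist1, needed for cranial mesenchyme and neural tube closure, was well above the dim range in both groups and did not pass the test. It had 229 and 218 on the Eva1 shRNA arrays, against 213 and 187 on the control arrays. After normalization the levels were 7.71 and 7.73 in Eva1 shRNA cells and 7.82 and 7.62 in control cells, so that the groups overlapped. The log2 change was 0.0017 with a 95% interval of -0.37 to 0.37 (adjusted p = 0.994), an interval from 0.775-fold to 1.29-fold.

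Twist2, also called Dermo1 and known from the dermis, likewise did not pass the test. It had 463 and 465 on the Eva1 shRNA arrays, against 437 and 425 on the control arrays. Replicates of Twist2 lay close together, differing by 1.00 times in Eva1 shRNA cells and 1.03 times in control cells. The deposited intensities were higher in Eva1 shRNA cells on each array, while the normalized levels were lower, at 8.74 and 8.81 in Eva1 shRNA cells against 8.85 and 8.83 in control cells. The log2 change was -0.066, with a 95% interval of -0.41 to 0.28 (adjusted p = 0.755), and 0.11 with the authors' scaling.

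The log2 changes of all 7 factors were higher with the authors' scaling than after quantile normalization. The all-gene median log2 change on the values as the authors scaled them was 0.18, against -0.014 after quantile normalization. Taken relative to that median, Twist1 stood at -0.0078 and Twist2 at -0.070 with the authors' scaling, beside 0.016 and -0.052 after quantile normalization. Snai1 stood at -0.16 and -0.20 on the same footing, Zeb1 at 0.51 and 0.52, and Snai2 at 1.90 and 1.88. The dim Snai3 stood at -0.27 and -0.21, and the dim Zeb2 at -0.42 and -0.40. With the authors' scaling 67.7% of all calls were higher, against 48.1% after quantile normalization.

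**Figure D2:**
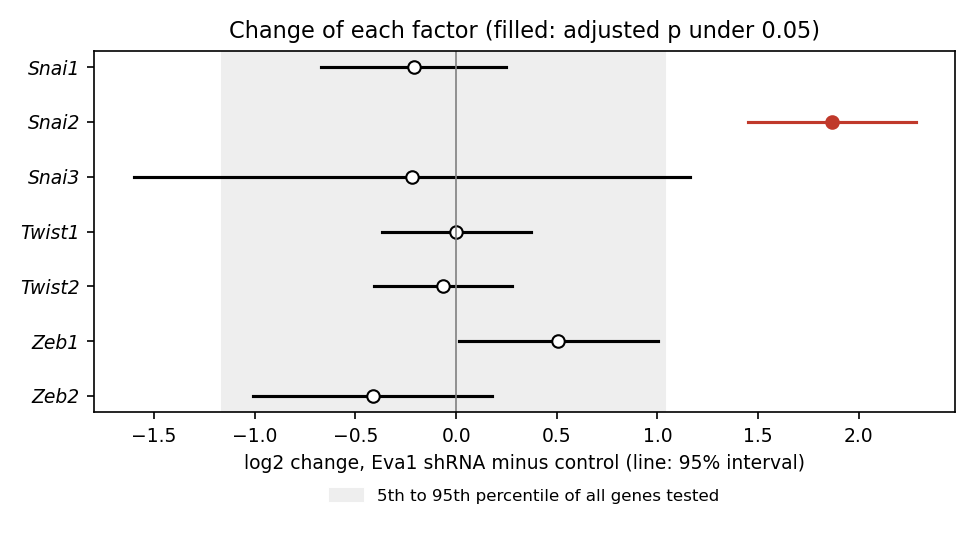
Log2 change of each factor, Eva1 shRNA minus control, with its 95% interval from limma; the filled red point passed the test and the grey band spans the 5th to 95th percentile of all genes tested, from -1.16 to 1.04. The interval of Snai2 lies to the right of the band, and the points of the other 6 factors lie inside it.

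By non-overlap alone, 4 of the 7 factors had separate groups, with Snai2 and Zeb1 higher and Twist2 and Zeb2 lower. Over all genes tested 66.7% had separate groups, 32.6% higher and 34.1% lower, so that the count of the factors is near the background. The summed intensity of the 7 probes was 1179 and 1036 on the Eva1 shRNA arrays and 914 and 846 on the control arrays. Most of that sum came from the probes of Twist1, Twist2 and Zeb1. The sums are of deposited values, which carry the all-gene shift of 0.18 log2 of the authors' scaling. Levels of different probes are not comparable, so the sums are not read as a rise of the set.

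**Figure D3:**
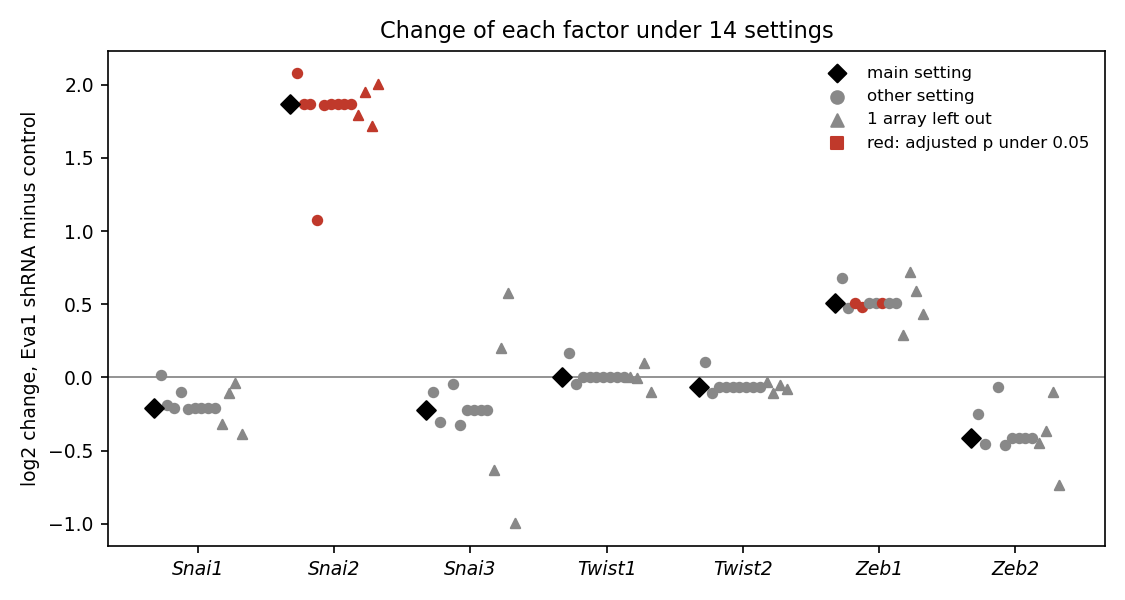
Log2 change of each factor, Eva1 shRNA minus control, under the main setting (black diamond) and 13 alternatives (circles, or triangles where 1 array was left out), with those at adjusted p under 0.05 in red. All circles and triangles of Snai2 are red and above 1, 3 circles of Zeb1 are red, and Twist1 stays within 0.17 of 0. Snai3 and Zeb2 have no point without the dimmest 25% of probes, which removed them.

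The genes whose pattern over the 4 arrays lay closest to that of Snai2 were Hs6st2, Rnase4 and C1ql3. Likeness was the Euclidean distance between log2 levels with each gene's mean subtracted, over 4 arrays and 6758 genes at or above the median level. The distances were 0.0918 for Hs6st2, a sulfotransferase of heparan sulfate, 0.111 for Rnase4, a secreted ribonuclease, and 0.121 for C1ql3, a secreted C1q-like protein. Their log2 changes were 1.86, 1.84 and 1.94. With 4 arrays this likeness is set mostly by the size of the group difference.

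Epithelial junction and cytoskeleton genes, the classical targets of these repressors, were lower where they were called. Of 30 listed genes 23 had a named probe, 6 of these were blank on at least 1 array and 17 were tested, of which 6 fell, 0 rose and 11 did not pass. The median log2 change was -0.45, beside -0.014 over all genes, and 13.5% of all genes were called lower. The number that fell was 2 and 3 without Eva1 shRNA arrays 1 and 2, and 3 and 5 without control arrays 1 and 2, and 1 gene rose without control array 1.

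Cdh1, the textbook target, was dim in both groups and did not pass the test. It had 4.68 and 5.88 on the Eva1 shRNA arrays, against 4.67 and 5.07 on the control arrays, with a log2 change of -0.095 and a 95% interval of -0.56 to 0.37 (adjusted p = 0.737). Its sign turned without Eva1 shRNA array 1, and also under the scaling of the authors. Ocln, the gene of the tight junction protein occludin and another known target, had 1.26 and 2.73 on the Eva1 shRNA arrays, against 1.91 and a blank cell on the control arrays, and was not tested. Of 5 listed markers of epithelial cells 3 were tested and 0 were called, beside 26.0% called over all genes. The summed intensity of the 3 was 16.6 on both Eva1 shRNA arrays and 12.8 and 13.2 on the control arrays.

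Among the 6 epithelial genes that fell, Krt20 and Pkp1 had the largest changes. Other keratin and desmosome genes of the list did not pass, with log2 changes of 0.058 for Krt19, -0.097 for Dsp and 0.039 for Jup. Krt20, an intestinal and urothelial keratin, had 167 and 160 on the Eva1 shRNA arrays, against 2904 and 2846 on the control arrays. Its log2 change was -4.31 (adjusted p = 0.000874), while a second probe that maps to Krt20 through the older symbol Krt21 had 25.4 and 26.7 on the Eva1 shRNA arrays, against 13.8 and 12.9 on the control arrays. The 2 probes therefore disagree in direction, and the gene's change rests on the brighter one. With the mean of both probes the log2 change of Krt20 was -1.78 (adjusted p = 0.00196). Pkp1, a plakophilin that anchors keratin to desmosomes, had 58.5 and 89.2 on the Eva1 shRNA arrays, against 618 and 635 on the control arrays, with a log2 change of -3.29 (adjusted p = 0.0016).

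Its relative Pkp3 had 3.75 and 3.70 on the Eva1 shRNA arrays, against 7.20 and 12.1 on the control arrays. The log2 change of Pkp3 was -1.54 (adjusted p = 0.00975), and -0.43 with 16 units added, and the call was lost without either Eva1 shRNA array and with blank cells filled (highest adjusted p 0.0587). Spint1, an inhibitor of membrane serine proteases, had a log2 change of -1.24 (adjusted p = 0.0103), which was -0.42 with 16 units added, and lost its call without Eva1 shRNA array 1 or control array 1. The polarity gene Llgl2 (log2 change -0.85) and the junctional adhesion gene F11r (log2 change -0.65), both named after their values were seen, also fell. The change of Llgl2 was -0.48 and that of F11r -0.31 with 16 units added. The call of Llgl2 was lost without either Eva1 shRNA array or control array 1 (highest adjusted p 0.0877). That of F11r was lost with any 1 array left out (highest adjusted p 0.143), and with the authors' scaling.

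The E-box letters of the Snail and Zeb proteins were common around the annotated starts of the listed epithelial genes with an entry. In the RefSeq promoters, 15 of 19 listed epithelial genes with an entry held CAGGTG on either strand in at least 1 window of 300 bases, 78.9%, against 22.6% of 27025 genes in all. Counted by window, the shares were 72% of 25 windows and 20.2% of 32851 windows. Of 17 mesenchymal genes with an entry 2 held it. The epithelial genes were listed as classical targets of these repressors, so their share describes this list and is no independent support. The background was not matched for base composition. Cdh1 had no entry among the promoters. A match is a description of letters and not of binding. Of the 7 tested epithelial genes with a match, 1 fell and 6 did not pass, and of the 3 tested without a match, 2 fell and 1 did not pass.

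Stretches in front of 4 tested junction genes show how the letters lie in front of a gene that was called and of genes that were not called. F11r encodes a junctional adhesion molecule and fell, Cldn7 and Cldn4 encode tight junction claudins, and Epcam encodes the epithelial cell adhesion molecule. Each is the 250 bases before the annotated start in GRCm38.p6, 5′ to 3′ in the direction of transcription, with each CAGGTG or CACCTG in capitals.
F11r, chr1:171437311-171437560, plus strand: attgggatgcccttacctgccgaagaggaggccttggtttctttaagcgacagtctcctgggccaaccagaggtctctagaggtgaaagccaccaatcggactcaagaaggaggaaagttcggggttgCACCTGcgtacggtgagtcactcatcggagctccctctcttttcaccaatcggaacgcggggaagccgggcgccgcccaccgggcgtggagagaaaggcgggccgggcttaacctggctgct
Cldn7, chr11:69965171-69965420, plus strand: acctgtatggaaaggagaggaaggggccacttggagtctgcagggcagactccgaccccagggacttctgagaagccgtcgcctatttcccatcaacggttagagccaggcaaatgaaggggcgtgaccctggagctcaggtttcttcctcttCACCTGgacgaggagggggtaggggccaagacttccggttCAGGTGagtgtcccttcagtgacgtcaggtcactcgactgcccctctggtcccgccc
Cldn4, chr5:134946935-134947184, minus strand: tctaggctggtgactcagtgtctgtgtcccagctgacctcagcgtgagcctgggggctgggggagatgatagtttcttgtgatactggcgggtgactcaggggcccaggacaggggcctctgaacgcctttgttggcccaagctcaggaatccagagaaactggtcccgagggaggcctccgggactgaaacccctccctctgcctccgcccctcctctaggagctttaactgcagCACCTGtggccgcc
Epcam, chr17:87635729-87635978, plus strand: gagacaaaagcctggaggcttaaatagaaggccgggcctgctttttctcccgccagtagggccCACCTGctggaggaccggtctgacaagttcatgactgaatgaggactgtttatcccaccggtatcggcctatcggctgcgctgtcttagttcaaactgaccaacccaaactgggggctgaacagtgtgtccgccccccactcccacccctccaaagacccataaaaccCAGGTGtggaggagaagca

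The F11r match begins 122 bases before the start, and F11r had 12.2 and 12.3 on the Eva1 shRNA arrays, against 16.9 and 16.2 on the control arrays. The Cldn7 stretch has matches beginning 97 and 57 bases before the start. Cldn7 has another annotated start, and the 250 bases before that start held 0 matches. Cldn7 had 28.1 and 28.8 on the Eva1 shRNA arrays, against 36.8 and 33.8 on the control arrays, a log2 change of -0.51 that did not pass (adjusted p = 0.0572). Under 3 of the 13 alternatives Cldn7 was called lower. The Cldn4 match begins 14 bases before the start, and those of Epcam 187 and 19 bases before it. Cldn4 was on the other side of 0 without passing, with 266 and 286 on the Eva1 shRNA arrays, against 191 and 215 on the control arrays (log2 change 0.27, adjusted p = 0.232). Epcam was dim, at 4.04 and 5.19 on the Eva1 shRNA arrays and 3.57 and 1.61 on the control arrays (log2 change 0.77, adjusted p = 0.262), and was called under 1 alternative, the fit without control array 1. Among the genes shown here F11r alone was called in the main setting, so the signs of the others are not read as changes. The part of the letters in these values was not tested.

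Of 15 listed regulators that keep cells epithelial 12 were tested, of which 2 fell, 1 rose and 9 did not pass, with a median log2 change of -0.037. The 3 calls among 12 genes are near the 26.0% called over all genes. Klf4, a zinc finger factor of epithelia and of pluripotent cells, had 983 and 965 on the Eva1 shRNA arrays, against 1920 and 1553 on the control arrays (log2 change -0.96, adjusted p = 0.011), and its call was lost without either Eva1 shRNA array (highest adjusted p 0.068). Foxa1, a pioneer factor of endoderm and breast, had 1.3 and 3.93 on the Eva1 shRNA arrays, against 8.91 and 10.8 on the control arrays, a log2 change of -2.22 (adjusted p = 0.024) that was -0.53 with 16 units added and was not called without control array 1 or 2 or with blank cells filled. Elf5, an ETS factor of mammary epithelium, had 3.79 and 3.71 on the Eva1 shRNA arrays, against 1.94 and 2.35 on the control arrays (log2 change 0.67, adjusted p = 0.029). The control values of Elf5 lie near 2.12 and 2.22, the medians of partly blank probes on those arrays, and at that signal no exact fold can be read. The log2 change was 0.10 with 16 units added, and its call was lost there, with eBayes trend and without either Eva1 shRNA array or control array 1. Ovol2, a known repressor of Zeb1, had 247 and 167 on the Eva1 shRNA arrays, against 146 and 135 on the control arrays, without passing (adjusted p = 0.254).

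Mesenchymal genes, which EMT factors are known to raise, changed in both directions. Of 30 listed genes 25 were tested, of which 8 rose, 6 fell and 11 did not pass, with a median log2 change of 0.22. Over all genes 12.5% were called higher and 13.5% lower. The counts without Eva1 shRNA arrays 1 and 2 were 4 and 4 that rose and 1 and 2 that fell, and without control arrays 1 and 2 they were 5 and 5 that rose and 2 and 3 that fell. With the authors' scaling 10 rose and 3 fell. Cdh2, the gene of N-cadherin, had 2248 and 1687 on the Eva1 shRNA arrays, against 1083 and 1200 on the control arrays. The groups of Cdh2 did not overlap, and its log2 change of 0.63 missed the threshold (adjusted p = 0.0596) but passed with the authors' scaling, after removal of the dimmest 25% of probes, after adding 16 units and with limma's trend option.

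The filament gene Vim and the matrix gene Fn1 did not pass either. Vim had 26085 and 20267 on the Eva1 shRNA arrays, against 16408 and 15332 on the control arrays, with a log2 change of 0.33 (adjusted p = 0.239). Fn1, the gene of fibronectin, had 1274 and 1126 on the Eva1 shRNA arrays, against 1090 and 1017 on the control arrays, with a log2 change of 0.026 and a 95% interval of -0.33 to 0.38 (adjusted p = 0.908); its sign turned with median centring and without Eva1 shRNA array 1 or control array 2.

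The mesenchymal genes with the smallest p were Acta2, S100a4, Cdh11 and Fap. S100a4, a calcium-binding protein named for fibroblasts, had 20104 and 15463 on the Eva1 shRNA arrays, against 1523 and 1123 on the control arrays, a log2 change of 3.57 (adjusted p = 0.00105). Cdh11, a cadherin of mesenchyme, had 29.0 and 24.7 on the Eva1 shRNA arrays, against 5.80 and 6.75 on the control arrays (log2 change 1.89, or 0.85 with 16 units added). Fap, a surface protease of activated fibroblasts, went the other way with 8.78 and 9.54 on the Eva1 shRNA arrays, against 29.8 and 27.5 on the control arrays (log2 change -1.86, or -0.93 with 16 units added). Acta2, the smooth muscle actin gene, had 408 and 316 on the Eva1 shRNA arrays, against 4.04 and 4.38 on the control arrays (log2 change 6.22, and 4.10 after adding 16 units).

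Ddr2, a collagen receptor known to act with SNAI1 in human tumour cells, also rose, with a log2 change of 1.69 (adjusted p = 0.00325), and passed under all 13 alternatives. Itga5, the fibronectin receptor subunit, fell by 1.05 on the log2 scale (adjusted p = 0.00841). The call of Itga5 was lost without either Eva1 shRNA array, and its change was -0.62 with 16 units added. Both were named after their values were seen. Of 4 tested smooth muscle markers the 1 called was Acta2 itself, while Des (log2 change -0.72), Tagln (-0.34) and Myh11 (-0.16) did not pass. The summed intensity of the 4 ran from 324 to 415 in Eva1 shRNA cells, of which Acta2 gave 316 and 408, and from 13.6 to 13.7 in control cells. Myh11, the smooth muscle myosin gene, had 2.82 and 2.58 on the Eva1 shRNA arrays and 2.64 and 2.74 on the control arrays. Of 5 tested fibroblast markers Col1a2 was called higher and Pdgfra lower. Beside these smooth muscle and fibroblast counts, 26.0% of all genes were called in either direction. The summed intensity of the 5 fibroblast markers ran from 93.9 to 149 in Eva1 shRNA cells and from 194 to 230 in control cells. The largest part of the control sum was Dcn, which was not called (limma, adjusted p = 0.0532). Dcn had 55.3 and 15.5 on the Eva1 shRNA arrays, against 117 and 93.0 on the control arrays. The part of other cell types in these differences was not tested.

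**Figure D4:**
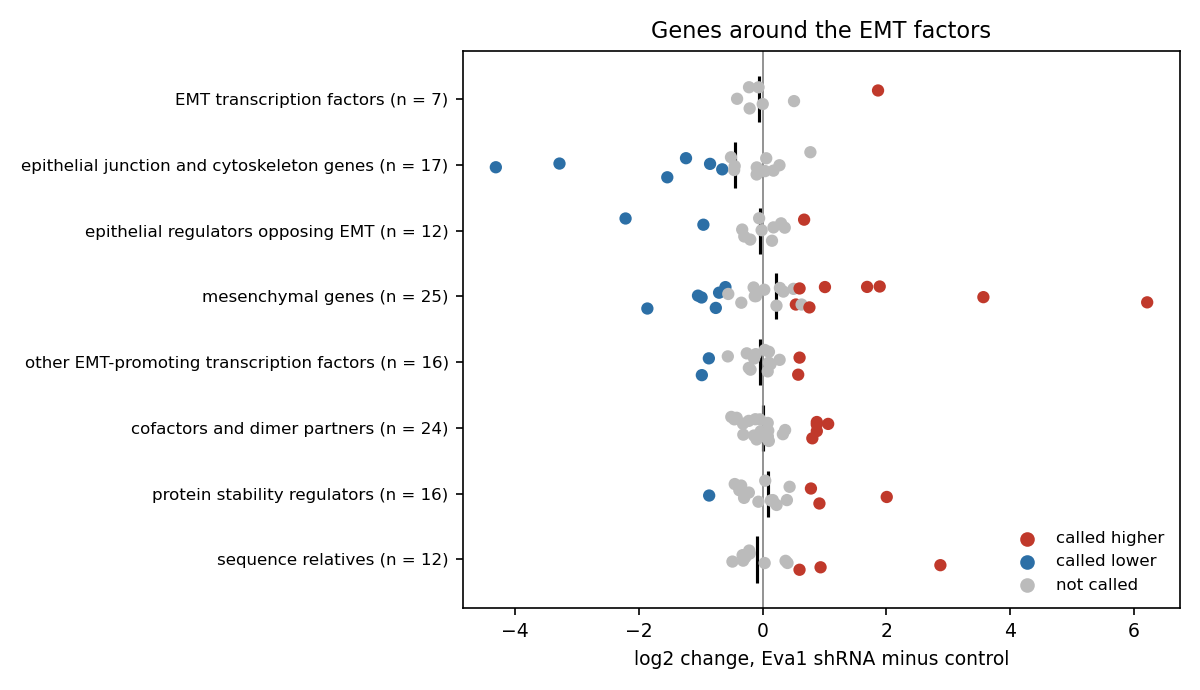
Log2 change, Eva1 shRNA minus control, of every tested gene in the 8 lists, with called genes in red (higher) or blue (lower), uncalled genes in grey and a bar at each list's median. The epithelial junction list has blue points and no red one, and the mesenchymal list has 8 red and 6 blue points.

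Of 19 other transcription factors listed as promoting EMT 16 were tested, of which 2 rose, 2 fell and 12 did not pass, with a median log2 change of -0.038. These 4 calls are likewise near the 26.0% of all genes. Hif1a, the oxygen-regulated factor that is known to induce Twist1 and Snai1, had 149 and 146 on the Eva1 shRNA arrays, against 268 and 248 on the control arrays (log2 change -0.98, adjusted p = 0.00783). Sox9, a partner of Snai2 in the neural crest and in mammary stem cells, had 51.9 and 46.9 on the Eva1 shRNA arrays, against 75.4 and 83.0 on the control arrays (log2 change -0.87, adjusted p = 0.0112). The Hippo effector Yap1 (log2 change 0.60) and the paired-type homeobox factor Prrx1 (log2 change 0.58, and 0.33 with 16 units added) rose. None of these 4 calls held without either Eva1 shRNA array, where 0 genes of the list were called, and Yap1 and Prrx1 were lost in all 4 cases with 1 array left out.

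Of 26 listed cofactors and dimer partners of the 7 factors 24 were tested, of which 5 rose, 0 fell and 19 did not pass, with a median log2 change of 0.0047. At the same time 12.5% of all genes were called higher. Ajuba, a LIM protein that Snai1 recruits, had 23.7 and 24.9 on the Eva1 shRNA arrays, against 9.33 and 10.6 on the control arrays (log2 change 1.06, adjusted p = 0.00703, and 0.52 with 16 units added). Ctbp1, the corepressor of the Zeb proteins, had 377 and 339 on the Eva1 shRNA arrays, against 165 and 179 on the control arrays (log2 change 0.88, adjusted p = 0.011).

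The related corepressor Ctbp2 did not pass, at 460 and 486 on the Eva1 shRNA arrays and 475 and 428 on the control arrays (log2 change -0.098, and 0.068 with the authors' scaling). Members of the nucleosome remodelling and deacetylase complex that rose were Rbbp4 (log2 change 0.80) and Mta1 (log2 change 0.88). Chd4 (log2 change -0.040) and Hdac2 (log2 change 0.084), of the same complex, did not pass. The arginine methyltransferase Prmt5, named after its value was seen, rose by 0.88 on the log2 scale. Tcf12, a helix-loop-helix partner of Twist proteins, had 277 and 300 on the Eva1 shRNA arrays, against 259 and 263 on the control arrays, without passing (log2 change -0.031, and 0.14 with the authors' scaling). The probes named Tcf3 and Tcf4 carry symbols that were also used for Tcf7l1 and Tcf7l2, so their values are not read as those of the Twist partners. Both probes remained in the list's counts and median. A second probe of Tcf3, under the older symbol Tcfe2a, had 271 and 230 on the Eva1 shRNA arrays, against 172 and 198 on the control arrays. Its log2 change was 0.27 (limma, adjusted p = 0.271 over probes), against -0.32 for the probe named Tcf3. The number of cofactors that rose was 1 and 0 without Eva1 shRNA arrays 1 and 2, and 1 and 4 without control arrays 1 and 2. The number of cofactors that fell was 1 with median centring, 2 when the dimmest 25% of probes were removed, 3 after adding 16 units and 2 under eBayes trend.

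Of 21 listed genes whose products set the stability of Snail, Twist and Zeb proteins 16 were tested, of which 3 rose, 1 fell and 12 did not pass, with a median log2 change of 0.087. The 4 calls are near the share of 26.0% over all genes. Prkd1, a kinase known to phosphorylate SNAI1 in human cells, had 93.8 and 94.5 on the Eva1 shRNA arrays, against 19.9 and 20.7 on the control arrays (log2 change 2.01, adjusted p = 0.00132). Fbxo45, part of a ubiquitin ligase for several EMT factors, rose by 0.92 on the log2 scale, and the kinase gene Csnk1a1 rose by 0.78. The ubiquitin ligase gene Fbxw7 fell by 0.86 on the log2 scale, and by 0.52 with 16 units added. Gsk3b, the kinase that marks Snai1 for degradation, had 48.5 and 40.8 on the Eva1 shRNA arrays, against 49.7 and 52.7 on the control arrays, without passing (adjusted p = 0.115). With 1 array left out, 1 or 2 genes of the list rose and 0 fell.

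Among relatives of the factors by sequence, Scx stood out in size. Of 17 listed genes 12 were tested, of which 3 rose, 0 fell and 9 did not pass, with a median log2 change of -0.088. Over all genes 12.5% were called higher and 26.0% in either direction. Scx (scleraxis), a helix-loop-helix factor of tendon related to Twist, had 885 and 637 on the Eva1 shRNA arrays, against 94.0 and 89.6 on the control arrays (log2 change 2.87, adjusted p = 0.00122). Ptf1a, a pancreatic and cerebellar relative, rose by 0.94 on the log2 scale (adjusted p = 0.0146), and Ferd3l, another Twist-related gene, rose by 0.60 (adjusted p = 0.0459, and 0.37 with 16 units added). Scrt2, a neural relative of the Snail genes, had 15.9 and 10.7 on the Eva1 shRNA arrays, against 10.0 and 11.6 on the control arrays, without passing. The calls of Ptf1a and Ferd3l were lost without either Eva1 shRNA array, and Ferd3l was also lost without either control array, while Scx passed under all 13 alternatives.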

How the data were processed

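The authors deposited a linear intensity per probe, already scaled: each array's filled cells have a median near 25. Per the labels, amplified RNA carrying Cy5 was put on 3D-Gene mouse chips with a single colour. No source used here gives the scanner, background correction or blanking rule. Between 6.95% and 12.0% of probes were blank per array.

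Symbols from the platform annotation (16631 probes with 1 symbol, 6842 with none) were brought up to date with RefSeq (GRCm38.p6), which also gave the promoters: 12622 already current, 3947 replaced, 59 ambiguous, 3 without a match. The 19199 probes filled on all 4 arrays were quantile normalized on the log2 scale, since array medians over them differed by 0.274. The probe with the highest mean stood for its gene. Groups were compared with limma 3.58.1 in R 4.3.3 (lmFit and eBayes, two-sided, Benjamini-Hochberg over 13765 genes, threshold 0.05, 2 residual degrees of freedom) and 95% intervals were taken from the same fit. Precision is limited by having 2 arrays a group.

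The members, lists, alternatives and naming rule were chosen with earlier results of these data known. The rule named Mpzl2, the 7 factors, Cdh1, Cdh2, Vim, Fn1 and Ocln where tested, up to 4 genes of each list with the smallest p, and for each factor that passed the 3 genes most like it. It gave 40 tested genes. A further 13, and marker, near-neighbour and second-probe values, were named after values were seen. So were some other list genes, among them Chd4 and Hdac2. The fit was tested on simulated data. Figures were drawn with matplotlib 3.10.9.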

Additional observations from a re-analysis of the deposited data

How the results depend on the processing

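The 13 alternatives changed the scaling (as the authors scaled, or median centring), dim probes (dimmest 25% removed, or 16 units added), blank cells (filled at each array's minimum), the model (replicate block, eBayes trend, eBayes robust), the probes (averaged per gene) and the arrays (each left out once). Snai2 kept its direction and its call under all 13, with log2 changes from 1.07 to 2.08. The 7 factors gave 1 call in the main setting and 2 calls, Snai2 and Zeb1, after removing the dimmest 25% of probes, after adding 16 units and under eBayes trend, and 0 were lower under any alternative. Over all genes, 1720 were higher and 1856 lower. With 1 array left out the counts ran from 544 to 1144 higher and from 735 to 1156 lower, with fewer arrays in the fit, and with the authors' scaling they were 2714 higher and 1295 lower. Among named genes, signs turned for changes that were not called. With the authors' scaling these were Snai1 (0.019), Twist2 (0.11), Cdh1 (0.11), Ctbp2 (0.068) and Tcf12 (0.14), and with median centring Twist1 (-0.041) and Fn1 (-0.023). With 1 array left out the log2 change ran from -0.995 to 0.57 for Snai3, -0.097 to 0.10 for Twist1, -0.30 to 0.11 for Cdh1, -0.029 to 0.083 for Fn1 and -0.11 to 0.046 for Tcf12. The cause was not tested, beside the all-gene shift of 0.18 with the authors' scaling. Of 27 genes outside the set that the naming rule gave and that passed the test, 9 kept the call under every alternative: Mpzl2, Krt20, Pkp1, Acta2, S100a4, Cdh11, Fap, Prkd1 and Scx, although Krt20 moved to -1.78 with the mean of its probes. Another 18 lost it with at least 1 array left out. The labels do not say whether same-numbered arrays were handled together. The correlation of same-numbered deviations from the group means was -0.025, which cannot settle this with 2 arrays a group. With the replicate block 1471 genes were higher and 1631 lower, and 1 of the 7 factors (Snai2, log2 change 1.87) was called. Snai3 and Zeb2 are too dim for the arrays to resolve a change.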

Other observations

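Some list genes that EMT factors are known to control were left untested because a cell was blank. Crb3, a polarity gene, had 2.75 and 3.91 on the Eva1 shRNA arrays, against a blank cell and 1.68 on the control arrays. Mmp9, a gelatinase gene, was blank on both Eva1 shRNA arrays and had 3.07 and 3.06 on the control arrays. Lox, a collagen crosslinking enzyme gene, had 2.68 and 1.66 on the Eva1 shRNA arrays and was blank on both control arrays. For comparison, the 95th percentile of values from partly blank probes ranged from 3.95 to 5.09 across the 4 arrays.

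The probe with the ambiguous symbol Sip1 had 37.8 and 37.4 on the Eva1 shRNA arrays, against 22.0 and 25.6 on the control arrays, with a log2 change of 0.45 (limma, adjusted p = 0.0906 over probes).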
